A study of Homo sapiens with 12 samples.

Results

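The comparison described here set 3 libraries of 5-fluorouracil-resistant Lovo cells against 3 libraries of the sensitive Lovo line, 6 of the 12 samples of the series, chosen by their labels. Lovo is an established human colorectal cancer cell line, and the other 6 samples came from HCT116, another such line, in the same 2 states. RNA was depleted of rRNA, sequenced in directional libraries, and reads across back-splice junctions, which mark circular RNAs (circRNAs), were counted. The sensitive group (Lovo-WT) was the parental line. The resistant group (Lovo-5FuR) was its derivative, grown in 5-fluorouracil (5-Fu) raised in steps from 0.1 to 2 μg/ml, and the labels give a survival of 3 days or more at the final concentration. All 6 samples were total RNA of 1 cell line. The labels do not say whether the 3 libraries of a group were separate cultures or separate selections. So p-values measure the spread between libraries, which may be technical. For edgeR that spread was estimated within groups over all 12 libraries, those of HCT116 included. Differences between a derivative and its parent that are unrelated to the drug cannot be told apart from resistance.

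A circRNA forms when the end of an exon is spliced back to the start of the same or an earlier exon, and the closed ring, which has no free ends, is resistant to exonucleases. Many protein-coding genes yield several circles, which share some junction ends and compete with the linear transcript of the host gene. 5-Fu is a pyrimidine analogue that cells convert to nucleotides; its products block thymidylate synthase and enter RNA and DNA, and colorectal cancer is among its main uses.

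The table lists 17938 circRNAs from 5957 host genes, and 8997 circRNAs from 3989 hosts had a read in Lovo. Sensitive libraries held 5654 to 6739 junction reads and resistant libraries 6994 to 7568. Across the 300 circRNAs tested below, which are not independent replicates, Pearson's r of log2 CPM (reads scaled to a common library size) lay at 0.622 to 0.632 among resistant libraries, 0.551 to 0.578 among sensitive ones, 0.524 to 0.620 between the states and 0.107 to 0.298 between Lovo and HCT116 libraries. As a check of the labelled cell type, 12 of 40 intestinal epithelium markers had circRNA reads in Lovo, 38 in the sensitive and 53 in the resistant libraries. These included the epithelial cadherin genes CDH1 and CDH17. No listed host was among 20 fibroblast, 26 immune cell or 15 endothelium markers, so these lists held 0 reads. In bulk RNA, fewer cells with a transcript and less of it per cell cannot be told apart.

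No circRNA passed the test between resistant and sensitive Lovo. Of the 300 circRNAs with enough reads over the 12 libraries to test, 155 had a fitted change above 0 and 140 below 0, and 5 had reads in HCT116 alone and could not differ here. The median log2 fold change was 0.03. The edgeR quasi-likelihood test called 0 of 300 (0%) at an adjusted p under 0.05, as did DESeq2 and limma-voom. At an unadjusted p under 0.05 stood 17 circRNAs (5.67%), where 15 would be reached by chance, and 13 of the 17 lay above 0. The 3 resistant libraries lay all above the sensitive ones in 23 of 300 circRNAs (7.67%) and all below in 14 (4.67%). The tested circRNAs had a median of 26 reads over the 6 libraries, and the median standard error of a log2 fold change was 0.85.

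**Figure D1:**
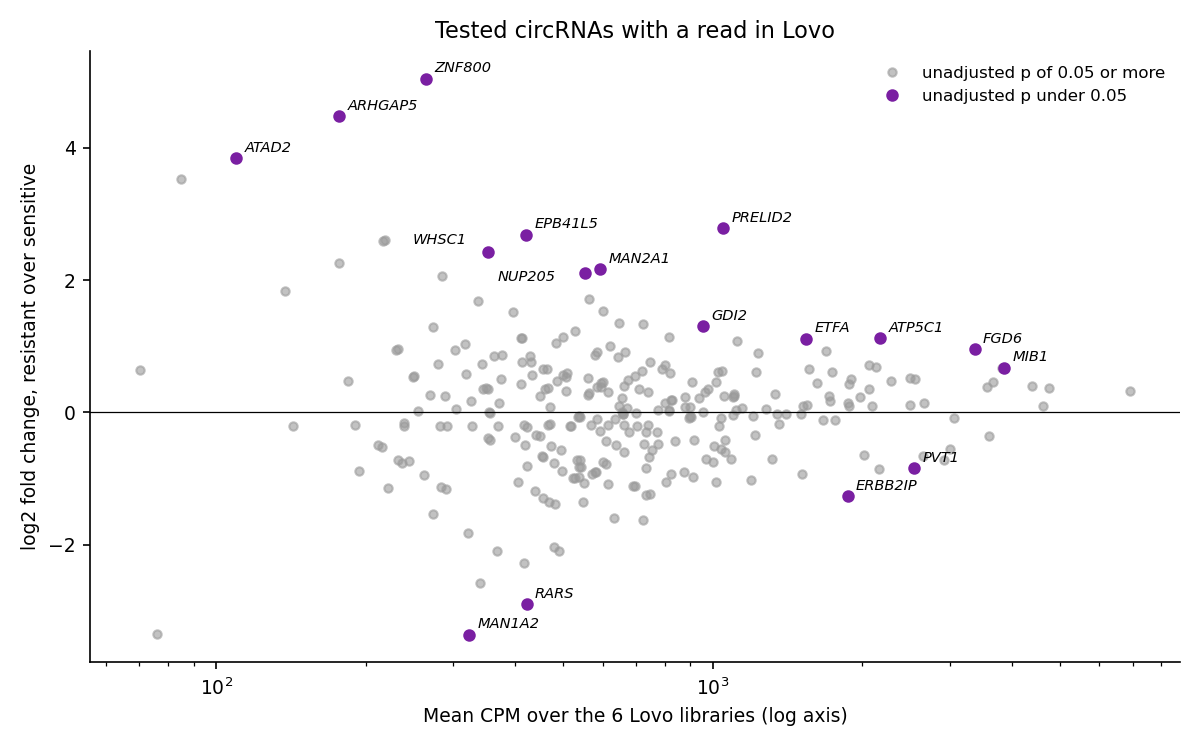
Fitted log2 fold change of resistant over sensitive Lovo (vertical axis) against mean junction CPM over the 6 Lovo libraries (log horizontal axis) for the tested circRNAs with a Lovo read. Purple points with host names are the 17 at an unadjusted p under 0.05, of which 13 lie above 0 and none passed adjustment.

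The smallest p belonged to a circle of PRELID2, a member of the PRELI family, whose relatives carry phospholipids between mitochondrial membranes. Its junction (hsa_circ_0008647, chr5:145176005-145205763 on hg19, exonic, predicted length 602 bases) had 1, 1 and 3 reads in the sensitive and 18, 7 and 17 in the resistant libraries. Every resistant library lay above every sensitive one. The level was 258 ± 189 CPM (scaled by TMM; SD, n = 3) in sensitive and 1843 ± 822 in resistant cells. The pooled ratio was 7.25-fold, with a 95% counting interval of 2.87 to 23.5 that covers counting error only. The log2 fold change was 2.78 ± 0.77 (SE), and the edgeR adjusted p was 0.0992, above the threshold. With the 6 Lovo libraries fitted alone the edgeR adjusted p was 0.0144, and over the alternatives tried it lay between 0.0144 and 0.855. In HCT116 the same junction went from 25 reads in sensitive to 7 in resistant libraries, and the difference of effects between the lines was the sole call among 300 circRNAs (0.333%).

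PRELID2 yielded 7 junctions with Lovo reads, and another circle shares the 145205763 end with the one above. This shorter circle (hsa_circ_0006528, chr5:145197457-145205763, predicted length 496 bases) had 8, 6 and 13 reads in the sensitive and 17, 16 and 15 in the resistant libraries. Its groups overlapped in CPM, with a ratio of 1.53 (0.938 to 2.56). In sensitive cells the shorter circle thus had 27 reads against 5 of the longer one, and in resistant cells 48 against 42. All PRELID2 circles together had 11, 7 and 18 reads in the sensitive and 38, 24 and 36 in the resistant libraries. The host sum had a log2 fold change of 1.20 ± 0.39 and an edgeR adjusted p of 0.608.

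Among the other circRNAs with the smallest p-values above 0, the best-covered came from ATP5C1 and FGD6. The circle of ATP5C1, the gamma subunit of mitochondrial ATP synthase (hsa_circ_0007292, chr10:7839010-7844817), had 10, 8 and 9 reads in the sensitive and 25, 15 and 28 in the resistant libraries. The groups did not overlap, the ratio was 2.17 (1.37 to 3.53), and the log2 fold change of 1.12 ± 0.41 had an edgeR adjusted p of 0.566. FGD6 encodes an exchange factor for the small GTPase Cdc42. Its circle (hsa_circ_0099549, chr12:95602619-95605043) had 10, 20 and 15 reads in the sensitive and 43, 28 and 31 in the resistant libraries, again with no overlap. That gave a ratio of 1.96 (1.36 to 2.84) and a log2 fold change of 0.96 ± 0.39 (edgeR adjusted p = 0.566).

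The circles of ZNF800, ARHGAP5 and ATAD2 had no read in a sensitive library, so their fold is given against a floor of 3 reads over the group. Such a fold leaves out the counting error of the other group, so it is not a strict lower bound. The circle of ZNF800, a zinc finger gene (hsa_circ_0082096), had 2, 5 and 5 reads in the resistant libraries, 3.45-fold higher against the floor. That of ARHGAP5 (hsa_circ_0031584) had 2, 2 and 4 reads, 2.30-fold higher against the floor. ATAD2 encodes a bromodomain ATPase, and its circle (hsa_circ_0085465) had 2, 1 and 2 reads, 1.44-fold higher against the floor. With 12, 8 and 5 Lovo reads, these 3 reached the filter total of 15 by their HCT116 reads. There the ARHGAP5 junction went from 9 reads over the sensitive libraries to 77 over the resistant ones.

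The remaining 4 of the 10 circRNAs above 0 had few and uneven sensitive reads. The circle of MAN2A1, Golgi alpha-mannosidase II, had 0, 1 and 3 reads in the sensitive and 3, 7 and 12 in the resistant libraries. The circle of NUP205, an inner-ring nuclear pore protein, had 4, 0 and 0 against 4, 11 and 6. GDI2 encodes a Rab GDP dissociation inhibitor, and its circle had 7, 4 and 0 against 15, 13 and 4. In these 3 circles the groups overlapped. The circle of EPB41L5, a FERM-domain protein of epithelial polarity, had 0, 2 and 0 against 5, 7 and 5. Another EPB41L5 junction has ends within 5 bases of it, and with the pair merged the reads were 2, 3 and 8 against 8, 13 and 13, a log2 fold change of 1.26 ± 0.56 (edgeR adjusted p = 0.568). Over the 10 circRNAs above 0 the edgeR adjusted p lay between 0.0992 and 0.662, and 7 of the 10 had groups that did not overlap. The 10 were chosen by p from the same contrast, so this count is a description, beside 7.67% all above among the 300.

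Of the 10 circRNAs with the smallest p below 0, a circle of ERBB2IP was among the better covered. ERBB2IP encodes erbin, a scaffold of the basolateral membrane. Its junction (hsa_circ_0001492, chr5:65284463-65290692) had 15, 16 and 21 reads in the sensitive and 9, 8 and 8 in the resistant libraries. All resistant libraries lay below, at 1090 ± 61.5 CPM against 2645 ± 612 (SD, n = 3 each), a ratio of 0.415 (0.247 to 0.680). The log2 fold change was -1.26 ± 0.52, with an edgeR adjusted p of 0.567. Another tested ERBB2IP circle (hsa_circ_0072732) had a log2 fold change of -0.024 ± 0.87. The circle of PVT1, a long noncoding RNA gene next to MYC (hsa_circ_0001821), had 25, 20 and 20 reads in the sensitive and 24, 10 and 8 in the resistant libraries. Its resistant replicate 1 was near the sensitive level, and the groups overlapped (ratio 0.557, 0.369 to 0.834). ZRANB1 encodes a deubiquitinase, and its circle (hsa_circ_0000268) had 27, 24 and 21 against 11, 18 and 21 reads, which did not overlap in CPM.

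Both RARS and MAN1A2 gave circles that share a start and differ in length. RARS encodes arginyl-tRNA synthetase. Its longer circle (hsa_circ_0001551, chr5:167915607-167924353) had 5, 7 and 3 reads in the sensitive and 0, 1 and 1 in the resistant libraries, a ratio of 0.115 with a counting interval of 0.0128 to 0.495. The shorter one (hsa_circ_0001550, chr5:167915607-167921655) had 7, 14 and 19 against 26, 18 and 23, a ratio of 1.44 (0.962 to 2.19). The longer circle of MAN1A2, a Golgi mannosidase of N-glycan trimming (hsa_circ_0000119, chr1:117944808-117984947), had 5, 5 and 2 reads against 0, 0 and 1, a ratio of 0.0719 (0.00168 to 0.486). Its shorter partner (hsa_circ_0000118, chr1:117944808-117963271) had 9, 7 and 8 against 6, 10 and 1, a ratio of 0.611 (0.308 to 1.19). The longer circles of both hosts lay below in every resistant library, while the shorter ones overlapped. A further tested MAN1A2 circle with another start (hsa_circ_0002059, chr1:118003111-118045592) had 5, 0 and 0 against 1, 6 and 0 reads, which overlapped. The difference between partners was not tested.

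The other 5 circRNAs below 0 each had 22 sensitive reads or fewer. STT3B, a catalytic subunit of the oligosaccharyltransferase, had a circle with 9, 1 and 6 reads in the sensitive and 1, 1 and 2 in the resistant libraries. The circle of CANX, the endoplasmic reticulum chaperone calnexin (hsa_circ_0001564), had 6, 10 and 3 against 3, 1 and 3. Another CANX circle with the same start (hsa_circ_0075292), below the filter, had no sensitive read and 1, 1 and 3 resistant reads. The circle of TERF2, a telomere-binding shelterin protein, had 7, 4 and 3 against 1, 0 and 2. The circle of TERF2 and the first CANX circle did not overlap in CPM. The circle of the phosphatase gene CDC14B had 0, 6 and 9 against 1, 1 and 2, and that of the membrane protein gene MCTP2 had 11, 3 and 8 against 6, 1 and 1. Over the 10 circRNAs below 0 the edgeR adjusted p lay between 0.566 and 0.662, and 6 of the 10 did not overlap, beside 4.67% all below among the 300. These 10 too were chosen by p from the same contrast.

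**Figure D2:**
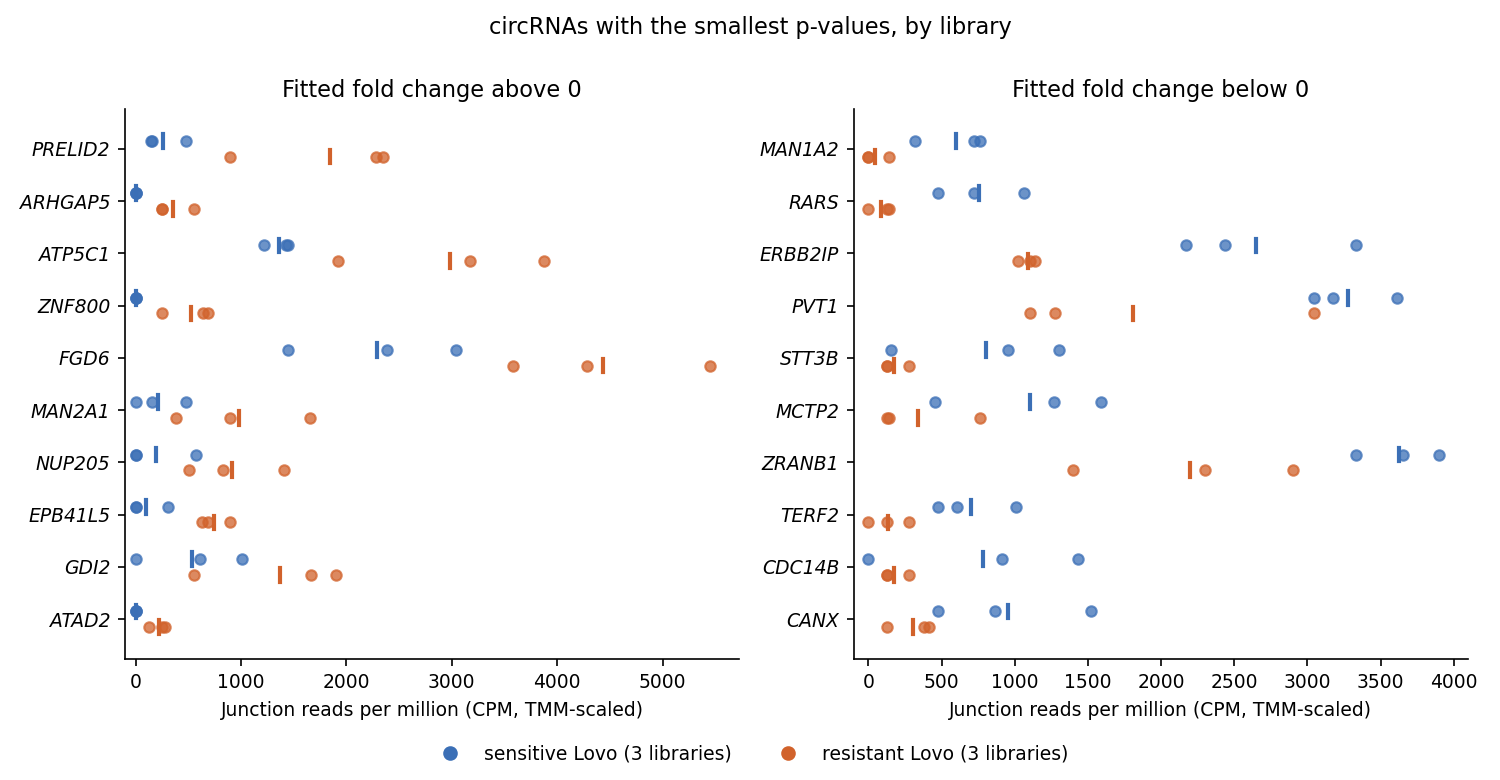
Junction CPM (horizontal axes) in each of the 6 Lovo libraries for the 10 circRNAs with the smallest p above 0 (left) and below 0 (right), with sensitive libraries in blue and resistant in orange, and short bars for group means. The PRELID2 circle stood at 258 ± 189 in sensitive and 1843 ± 822 in resistant libraries, and the ERBB2IP circle at 2645 ± 612 and 1090 ± 61.5 (mean ± SD, n = 3 each).

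Of the 10 circRNAs with the most Lovo reads, 9 had a resistant-to-sensitive ratio above 1. They were ranked by raw reads summed over both states, and the resistant libraries held 22000 reads against 18289. That ranking favours circles with more resistant reads, so the 9 of 10 is a description. The leading circle came from HIPK3, a homeodomain-interacting kinase gene (hsa_circ_0000284, chr11:33307959-33309057). It had 35, 41 and 45 reads in the sensitive and 62, 48 and 66 in the resistant libraries, which overlapped in CPM (ratio 1.25, 0.990 to 1.59). The circle of MIB1, a ubiquitin ligase of Notch ligands, had 28, 12 and 19 against 40, 32 and 37, without overlap, and a ratio of 1.59 (1.15 to 2.23). PRKD3, a protein kinase D gene, had a circle with 17, 18 and 23 against 34, 31 and 42, also without overlap (ratio 1.59, 1.15 to 2.23). The circle of FAT1, an atypical cadherin, had 29, 29 and 30 against 35, 29 and 45, which overlapped (ratio 1.07, 0.799 to 1.43). The exception was RBM33, an RNA-binding protein gene, with 41, 17 and 23 against 27, 31 and 15 reads and a ratio of 0.777 (0.559 to 1.08).

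Among the rest of the 10, the circle of SPECC1 had 42, 23 and 18 reads in the sensitive and 39, 43 and 41 in the resistant libraries. That of XPO1, the nuclear export receptor, had 18, 37 and 20 against 49, 38 and 28, and that of the death receptor gene TNFRSF21 had 19, 18 and 24 against 32, 29 and 36. ABR had a circle with 17, 22 and 22 against 41, 30 and 22. All 4 overlapped, while FGD6, described above, did not. Together the 10 circles had 732 sensitive and 1104 resistant reads, a ratio of 1.25 (1.14 to 1.38). This ratio and the shares below come from the same reads by which the 10 were ranked. They took 3.80, 4.02 and 4.23% of the sensitive and 5.31, 4.85 and 4.88% of the resistant libraries. That is 4.02 ± 0.214% against 5.01 ± 0.259% (SD, n = 3 each). The two-sided exact permutation p was 0.1 and the adjusted p 0.3 over 6 library measures. With 3 libraries a group p cannot go below 0.1, so no library measure or share could pass the threshold.

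Summing all circles of a host gene also gave no call. Of 580 host sums tested, 289 lay above 0 and 287 below, and edgeR called 0 (0%), as did DESeq2 and limma-voom. At an unadjusted p under 0.05 stood 28 (4.83%, 29 by chance), with 21 above 0. Resistant libraries lay all above in 38 host sums (6.55%) and all below in 26 (4.48%). Restricting the sums to circles that had too few reads for the circRNA test left 413 hosts with 0 called (0%) by edgeR and 19 at an unadjusted p under 0.05 (4.60%). Leaving out sensitive replicate 1 gave a single call in host sums. It was WHSC1, a histone methyltransferase gene, whose 18, 1 and 2 sensitive reads stood against 16, 21 and 12 resistant ones. Its log2 fold change was 1.01 ± 0.47 with all libraries (edgeR adjusted p = 0.849) and 3.07 ± 0.72 without that replicate (edgeR adjusted p = 0.0162).

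Beside PRELID2, the hosts with the smallest p above 0 were ATAD2, SKIV2L2, CAMSAP1 and LRPPRC. LRPPRC, which stabilises mitochondrial mRNAs, had 2, 2 and 2 reads in the sensitive and 12, 7 and 9 in the resistant libraries. These reads were spread over 15 junctions, none of which could be tested alone, and 13 of them had more resistant than sensitive reads. LRPPRC was chosen by the p of the sum of these reads, so the 13 of 15 is a description and no separate evidence. The ratio was 4.03 (1.64 to 11.9), and the log2 fold change 1.94 ± 0.74 (edgeR adjusted p = 0.715). CAMSAP1, a protein that binds microtubule minus ends, had 7, 15 and 13 against 30, 23 and 26 reads, a log2 fold change of 0.93 ± 0.35 (edgeR adjusted p = 0.715), or 0.62 without sensitive replicate 1. Its leading circle (hsa_circ_0001900) took 32 of the sensitive and 60 of the resistant reads, and its minor circles, all below the filter, had 3 and 19. By library these had 0, 0 and 3 sensitive and 11, 5 and 3 resistant reads, a log2 fold change of 2.31 ± 0.93 (edgeR adjusted p = 0.844). Since sensitive replicate 3 held all the sensitive reads, the fitted value without it was 5.69.

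ATAD2 had no sensitive read and 3, 3 and 5 resistant reads over 3 junctions, 3.16-fold higher against the floor. SKIV2L2, a helicase of the nuclear RNA exosome, had no sensitive read and 8, 0 and 3 resistant reads over 4 junctions, so resistant replicate 2 was like the sensitive libraries. Below 0, VPS8, a subunit of the endosomal CORVET complex, had 2, 6 and 4 sensitive reads over 6 junctions. It had none in the resistant libraries, 4.64-fold lower with these at the floor. The microtubule-binding protein CLASP1 had 8, 8 and 8 against 2, 5 and 2 reads, a ratio of 0.323 (0.132 to 0.721). RHBDD1, a rhomboid protease, had 6, 5 and 8 against 1, 4 and 0. ACACA, acetyl-CoA carboxylase, had 2, 4 and 2 against 0, 1 and 0. In these 4 hosts all resistant libraries lay below, beside 4.48% of all 580 host sums. They were chosen by p from the same contrast, so this count is a description. IARS, isoleucyl-tRNA synthetase, had 25, 19 and 11 against 15, 9 and 8 reads, which overlapped. Its circle hsa_circ_0087493, which shares a start with its leading circle, had no sensitive read and 1, 3 and 2 resistant reads. The edgeR adjusted p of the 5 hosts below 0 lay between 0.715 and 0.849.

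**Figure D3:**
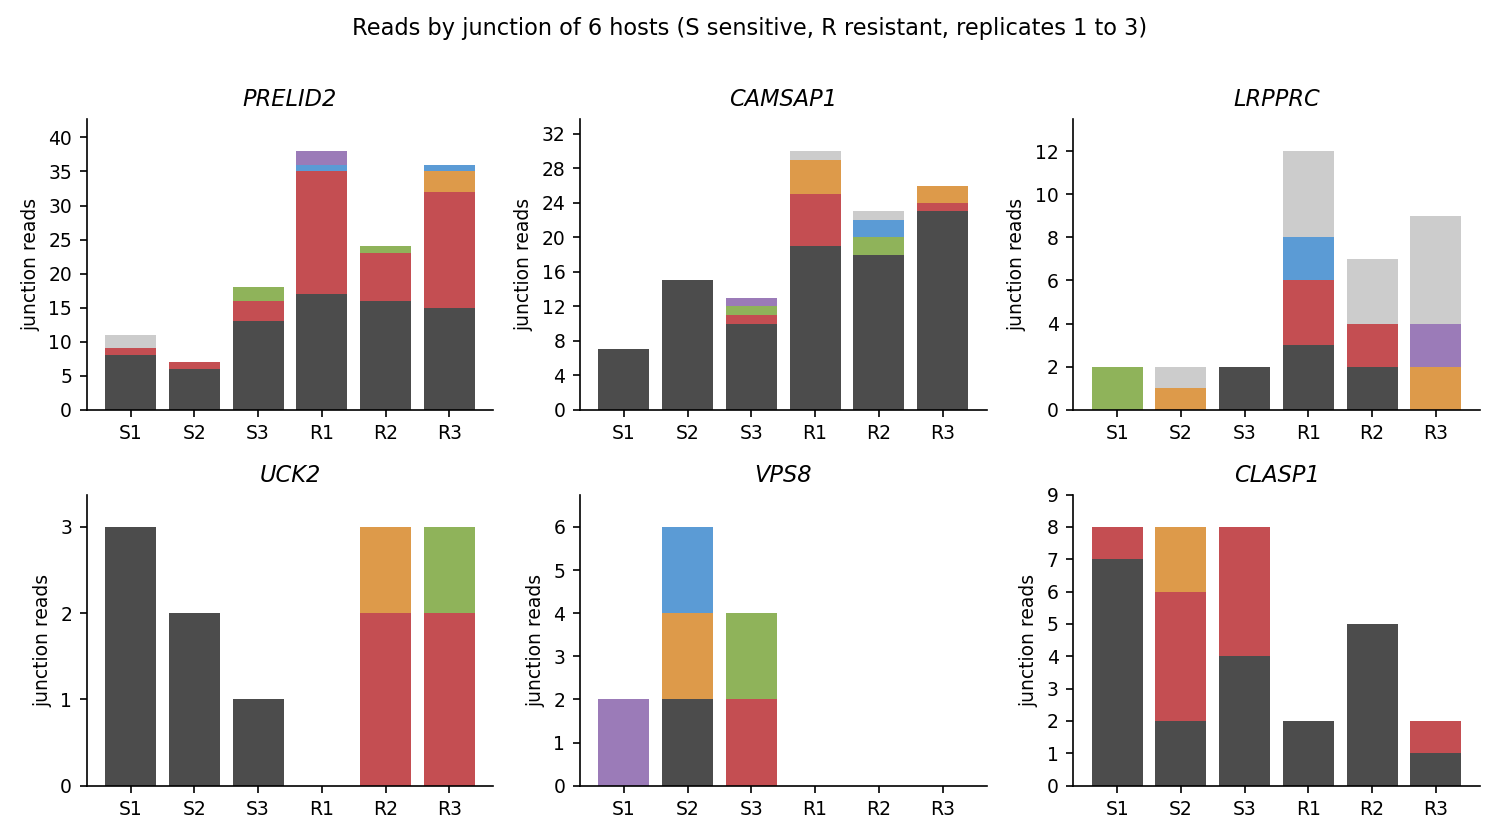
Junction reads (vertical axes, whole reads) of 6 host genes in the sensitive (S1 to S3) and resistant (R1 to R3) Lovo libraries, each colour a back-splice junction of that host, up to 6, and light grey the remaining junctions. LRPPRC had 2, 2 and 2 against 12, 7 and 9 reads over many small junctions, while PRELID2 reads lay mainly in a pair of circles.

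Circles seen in every library of one state and in none of the other were counted among all 8997 circRNAs with a Lovo read, with no test. There were 61 (0.678%) in the resistant and 28 (0.311%) in the sensitive direction, and 42 (1.05%) and 21 (0.526%) of 3989 hosts. The resistant libraries were deeper, with 22000 reads in all against 18289, and the part of depth in these counts was not tested. With at least 2 reads required in each library the counts were 5 and 4 circRNAs, and 9 and 1 hosts. Of the 61, 58 were exonic, 1 intronic and 2 sense overlapping, and of the 28, 25 were exonic and 3 sense overlapping.

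In the resistant direction ZNF800 led with 12 reads. The circle of TDRD3, a tudor-domain protein that binds methylated arginine (hsa_circ_0004245), followed with 6, 1 and 3 reads, 2.88-fold higher against the floor. The circle of CD2AP, an adaptor between membrane receptors and actin, had 2, 1 and 6. ARF3, a Golgi GTPase (hsa_circ_0003770), had 2, 2 and 4, and 9 further circles tied with it at 8 reads. In CD2AP resistant replicate 3 held most of the reads.

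In the sensitive direction a circle of LRCH1, a leucine-rich repeat protein (hsa_circ_0002215, chr13:47297356-47308133), had 4, 6 and 2 reads. That was 4.64-fold lower in resistant cells with these at the floor. The circle of IBTK, an inhibitor of Bruton's tyrosine kinase (hsa_circ_0002041), had 3, 5 and 2, 3.86-fold lower by the same floor. TMEM245 (3, 2 and 3 reads) and TULP4 (1, 3 and 4) were 3.09-fold lower by that floor, and PCBP2, a poly(C)-binding protein (5, 1 and 1), 2.71-fold lower. In HCT116 the IBTK junction had 3 sensitive and 10 resistant reads.

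Genes of fluoropyrimidine and folate metabolism, the route by which 5-Fu is activated and meets its target, gave few circles. Of 49 genes on the list, 20 had Lovo reads over 44 circRNAs, and none of these could be tested. They had 40, 16 and 16 reads in the sensitive and 21, 17 and 20 in the resistant libraries, a pooled ratio of 0.670 (0.466 to 0.960). Sensitive replicate 1 alone held 40 of the 72 sensitive reads, and the shares of the 6 libraries overlapped. MTR, methionine synthase, had 8, 2 and 4 against 4, 0 and 1 reads. GART, of purine synthesis, had 7, 1 and 4 against 1, 0 and 0, a ratio of 0.0719 (0.00168 to 0.486). UMPS, which turns 5-Fu directly into a nucleotide, had 4, 1 and 0 against 3, 3 and 4, a ratio of 1.73 (0.537 to 6.43). DCTD, deoxycytidylate deaminase, had 5, 0 and 2 against 3, 1 and 1. GART lay below in CPM in every resistant library, and the other 3 overlapped. Sensitive replicate 2 and resistant replicate 1 each had 1 GART read, at 151 and 127 CPM, so they differed by library size alone. MTR and DCTD were the hosts of the list with enough reads to test, with an edgeR adjusted p of 0.904 and 0.996.

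UCK2, uridine-cytidine kinase of the same list, was singled out after its values were seen, because the few reads of its junctions fell in different states. None of these junctions was tested. The circle hsa_circ_0008054 (chr1:165859441-165865569) had 3, 2 and 1 reads in the sensitive libraries and none in the resistant ones. Circles with reads in every sensitive and no resistant library numbered 28 of 8997 (0.311%). The other 3 UCK2 junctions had none in the sensitive and 6 in the resistant libraries, 4 of them from hsa_circ_0006758, which shares the start at 165859441. The host sum was 3, 2 and 1 against 0, 3 and 3 reads, a ratio of 0.863 (0.231 to 3.23).

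The 10 ABC transporter genes with reads, which include drug exporters, had 39 sensitive and 42 resistant reads (ratio 0.895, 0.565 to 1.42). ABCC4 had 3, 0 and 2 against 4, 1 and 10 reads, and ABCC1 8, 0 and 4 against 3, 0 and 1. ABCD3 had 4, 0 and 0 against 0, 5 and 6, and ABCA5 3, 1 and 2 against 0, 2 and 2. All 4 hosts overlapped. Solute carriers (63 hosts) had 224 and 252 reads (0.935, 0.778 to 1.12), with 1 of 2 tested circRNAs above 0. Of its 4 leading hosts, SLC37A3 (24 and 24 reads, 0.863), SLC41A2 (19 and 15, 0.681) and SLC7A6 (13 and 12, 0.796) overlapped. SLC12A2, a sodium-potassium-chloride cotransporter, had 2, 1 and 3 against 7, 4 and 7 reads, without overlap.

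Mitochondrial proteins had the highest pooled ratio of the lists with Lovo reads. Their 58 hosts had 324 sensitive and 528 resistant reads (1.35, 1.18 to 1.56), at 1.57, 1.80 and 1.98% of the sensitive and 2.31, 2.49 and 2.41% of the resistant libraries. Of 8 tested circRNAs, 6 lay above and 2 below 0 with a median log2 fold change of 0.82, beside 0.03 over all 300, and 0 were called. Besides PRELID2 and ATP5C1, a circle of ETFA, an electron transfer flavoprotein subunit (hsa_circ_0000638), had 5, 6 and 8 reads in the sensitive and 13, 14 and 21 in the resistant libraries. That circle did not overlap and had a ratio of 2.18 (1.26 to 3.93). The list was drawn up with PRELID2, ATP5C1, ETFA and LRPPRC known from earlier results of these data. These 4 hosts had 115 and 283 reads, a ratio of 2.05 (1.64 to 2.56), and the other 54 had 209 and 245, a ratio of 0.975 (0.807 to 1.18).

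Of the 24 lists with Lovo reads, 3 (12.5%) had resistant shares all above the sensitive ones and 1 (4.17%) all below, with no test. The mitochondrial list was among the 3, and without its 4 hosts known earlier its shares overlapped. The others were vesicle trafficking, with 458 and 660 reads over 107 hosts (1.20, 1.06 to 1.35), and rRNA processing, RNA decay and modification, with 309 and 426 over 69 hosts (1.15, 0.988 to 1.33). In vesicle trafficking 5 of 6 tested circRNAs lay above 0. Its sorting nexin SNX25 had a circle with 4, 3 and 10 reads in the sensitive and 9, 3 and 9 in the resistant libraries (ratio 1.07, 0.535 to 2.15). That of SNX5 had 2, 1 and 3 against 14, 5 and 2, and a circle of SNX13 (hsa_circ_0005519) had 6, 2 and 3 against 11, 8 and 3. All these overlapped. Another SNX13 circle (hsa_circ_0004671) had 4, 5 and 1 against 6, 13 and 7, without overlap in CPM. In the RNA list 5 of 7 lay above 0. Its reader of N6-methyladenosine YTHDF2 had a circle (hsa_circ_0000039) with 3, 5 and 6 against 16, 8 and 11 reads, which did not overlap (ratio 2.16, 1.13 to 4.34). Circles of SAMD4A (ratio 1.41), UPF2 (0.518) and METTL3 (1.51) in that list overlapped. The list below was a set of 3 hosts that tell HCT116 from Lovo. In Lovo it consisted of the desmoglein gene DSG3, with 30, 20 and 23 against 23, 22 and 22 reads, and CYP24A1 and MAVS had none.

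**Figure D4:**
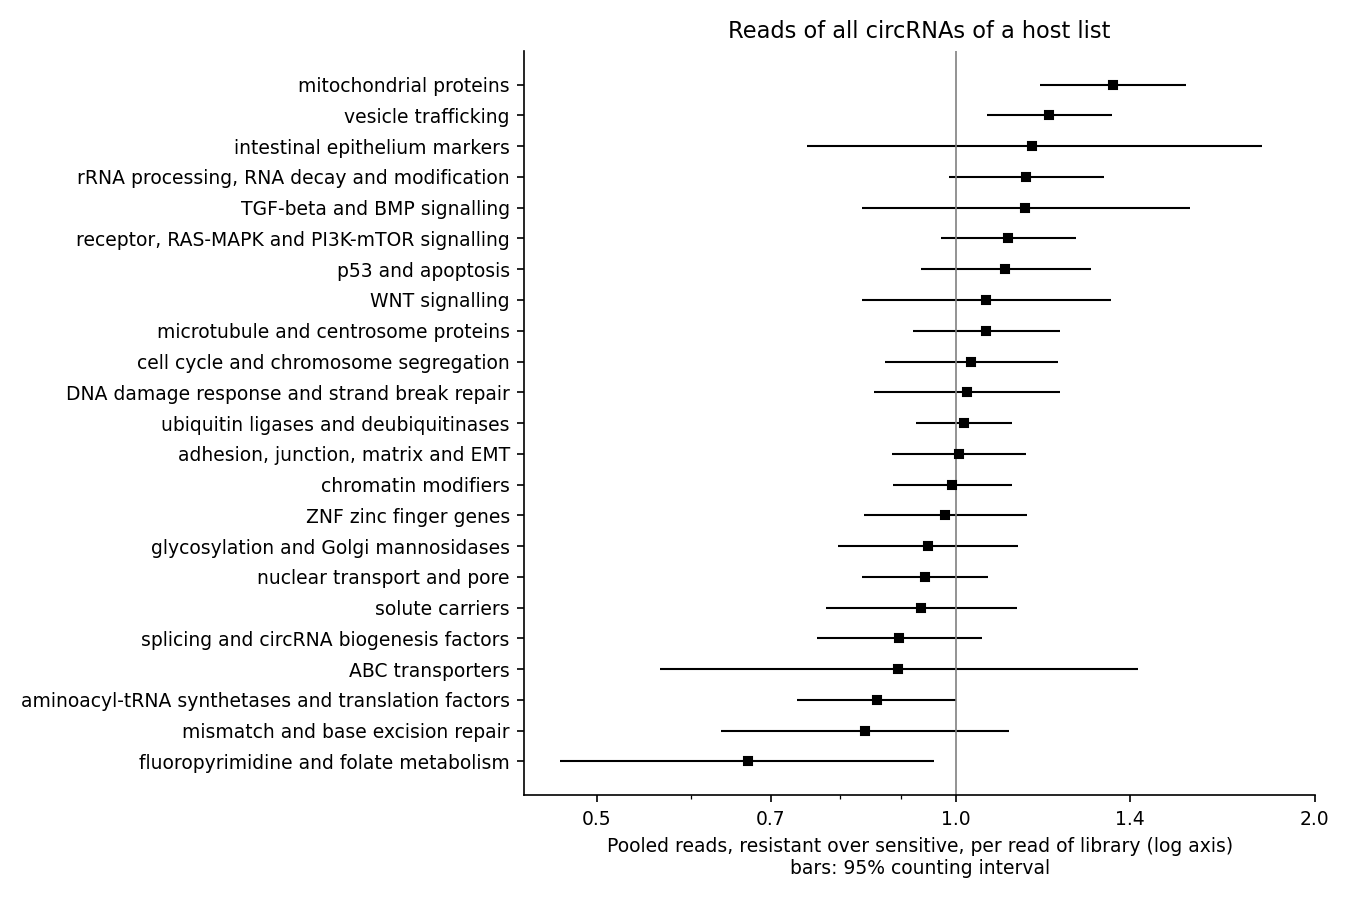
Ratio of resistant to sensitive reads per read of library (log horizontal axis) for all circRNAs of each host list with Lovo reads, except the cross-check list, with bars for the 95% counting interval. Mitochondrial proteins (1.35) and vesicle trafficking (1.20) lie above 1 with their intervals, and fluoropyrimidine and folate metabolism (0.670) lies below. Without the 4 hosts known from earlier results, the other 54 mitochondrial hosts had a ratio of 0.975 (0.807 to 1.18).

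Repair and growth-control lists lay near a ratio of 1. DNA damage response and strand break repair had 226 and 278 reads over 40 hosts (1.02, 0.855 to 1.22), with 3 of 4 tested circRNAs above 0. The 4 came from BARD1 (12 and 9 reads, ratio 0.647), UIMC1 (6 and 12, 1.73), FANCL (7 and 9, 1.11) and BRIP1 (5 and 10, 1.73). All 4 overlapped. In the same list FANCI, of the Fanconi anaemia pathway, had 0, 2 and 0 against 9, 3 and 7 reads, without overlap. This host was singled out after its values were seen, and 6.55% of all tested host sums lay all above. Mismatch and base excision repair had 106 and 107 reads over 16 hosts (0.839, 0.635 to 1.11), and 1 of 2 tested circRNAs lay above 0. PMS1 had a circle with 6, 5 and 10 against 7, 7 and 9 reads, and the DNA glycosylase gene NEIL3 one with 6, 2 and 2 against 1, 4 and 9. The p53 and apoptosis list had 262 and 347 reads over 15 hosts (1.10, 0.935 to 1.30), and 2 of 3 tested circRNAs lay above 0. Its leading host sums HIPK3 (1.26), TNFRSF21 (1.36) and BIRC6 (0.863) overlapped. MDM2, the ubiquitin ligase of p53, had 5, 3 and 5 against 2, 2 and 2 reads, without overlap (ratio 0.398, 0.124 to 1.12).

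Cell cycle and chromosome segregation had 259 and 321 reads over 46 hosts (1.03, 0.872 to 1.22), with 3 of 6 tested circRNAs above 0. A circle of the cyclin gene CCNB1 had 7, 4 and 5 against 5, 9 and 5 reads, and that of the checkpoint kinase gene BUB1B had 6, 3 and 5 against 4, 4 and 6. Microtubule and centrosome proteins had 352 and 449 reads over 51 hosts (1.06, 0.920 to 1.22), with 4 of 9 above 0 and 4 below. The list held both CAMSAP1 and CLASP1, which lay on opposite sides of 0. Chromatin modifiers had 550 and 657 reads over 85 hosts (0.993, 0.885 to 1.11), with 7 of 14 above 0. Ubiquitin ligases and deubiquitinases, the list with the most reads, had 834 and 1020 over 98 hosts (1.02, 0.927 to 1.12), with 8 of 13 above 0.

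Signalling lists gave ratios above 1 whose intervals all held 1. Receptor, RAS-MAPK and PI3K-mTOR signalling had 408 and 543 reads over 67 hosts (1.11, 0.971 to 1.26), and 4 of 7 tested circRNAs lay above 0. The circle of the receptor tyrosine kinase gene MET had 12, 15 and 9 against 7, 26 and 16 reads. WNT signalling had 127 and 162 reads over 22 hosts (1.06, 0.835 to 1.35), and 1 of 2 tested circRNAs lay above 0. Its leading hosts CSNK1G3 (52 and 62 reads, 1.03), LRP6 (17 and 13, 0.660) and RYK (12 and 16, 1.15) overlapped. AXIN1, a scaffold of the beta-catenin destruction complex, had 0, 3 and 3 against 7, 7 and 5 reads, without overlap (ratio 2.73, 1.05 to 8.36). TGF-beta and BMP signalling had 72 and 99 reads over 25 hosts (1.14, 0.835 to 1.57). In it TGFBR2, the type II TGF-beta receptor, had 1, 1 and 0 against 4, 2 and 8 reads, without overlap, and the activin receptor gene ACVR2A had 11, 9 and 3 against 4, 2 and 6, which overlapped. SMAD2 (8 and 8 reads, 0.863) and SMAD5 (5 and 9, 1.55) overlapped too. The sole tested circRNA of that list, from ACVR2A, lay below 0.

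Adhesion, junction, matrix and EMT genes had 436 and 528 reads over 44 hosts (1.01, 0.885 to 1.15), with 4 of 10 tested circRNAs above 0. Nuclear transport and pore genes had 507 and 575 over 47 hosts (0.943, 0.835 to 1.06), with 6 of 11 above 0. Aminoacyl-tRNA synthetases and translation factors had 336 and 347 over 53 hosts (0.859, 0.737 to 1.00), with 2 of 5 above 0. There, the leading circle of IARS (hsa_circ_0006702) had 19, 15 and 6 against 14, 5 and 5 reads. Splicing and circRNA biogenesis factors had 305 and 329 over 57 hosts (0.897, 0.765 to 1.05), with 1 of 2 above 0. Glycosylation and Golgi mannosidases had 249 and 284 over 35 hosts (0.948, 0.797 to 1.13), with 4 of 9 above 0, and ZNF zinc finger genes 296 and 349 over 68 hosts (0.980, 0.837 to 1.15), with 6 of 12. In the ZNF list the circle of ZNF609 had 10, 3 and 14 against 5, 6 and 4 reads (ratio 0.479, 0.237 to 0.933). The groups overlapped, and the edgeR adjusted p was 0.870. Circles of ZNF394 and ZNF124 (hsa_circ_0112879) in that list had log2 fold changes of 0.24 ± 0.60 and -0.00046 ± 0.53.

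The 8702 circRNAs with Lovo reads that fell below the count filter were pooled by class and predicted length, which gave 15 strata, tested beside the pooled circRNAs past the filter. The edgeR quasi-likelihood test called 0 of 16 (0%), and 1 had an unadjusted p under 0.05 (6.25%). It was the stratum of intronic circles of up to 300 bases, with 51, 49 and 56 reads in the sensitive and 40, 39 and 12 in the resistant libraries. All resistant libraries lay below, and resistant replicate 3 lay far below the others. The ratio was 0.485 (0.370 to 0.632) and the log2 fold change -1.04 ± 0.48, with an edgeR adjusted p of 0.435. Without resistant replicate 3 the log2 fold change was -0.66. The 247 reads came from 106 circRNAs of 91 hosts, and the leading 5 circRNAs held 9.31% of them.

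The next intronic strata had ratios on the same side of 1. Circles of over 300 and up to 600 bases had 35, 30 and 34 against 32, 25 and 20 reads, a ratio of 0.647 (0.474 to 0.880). Those of over 600 and up to 1000 bases had 27, 12 and 17 against 6, 4 and 33, so that resistant replicate 3 held 33 of 43 resistant reads. Without that replicate this stratum was called (edgeR adjusted p = 0.00994), and with it the adjusted p was 0.928. Intronic circles over 1500 bases had 147, 85 and 89 against 154, 95 and 156 reads (1.05, 0.904 to 1.22). All intronic circles took 4.67, 3.60 and 3.91% of the sensitive and 3.57, 2.76 and 3.59% of the resistant libraries, or 4.06 ± 0.555% against 3.31 ± 0.473% (SD, n = 3 each; exact permutation p = 0.1, adjusted p = 0.714 over 10 shares). Of the 10 shares compared, this 1 lay all below (10%) and none all above (0%).

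Exonic strata held most reads and lay close to a ratio of 1 up to 1500 bases. Those of up to 300 bases had a ratio of 0.929 (0.869 to 0.993), and those of over 300 and up to 600 bases 0.998 (0.959 to 1.04). Those of over 600 and up to 1000 bases stood at 0.994 (0.946 to 1.04), and those of over 1000 and up to 1500 bases at 0.989 (0.916 to 1.07). Exonic circles over 1500 bases had 362, 293 and 216 reads in the sensitive and 430, 367 and 465 in the resistant libraries. Their ratio was 1.20 (1.10 to 1.31), the log2 fold change 0.28 ± 0.14, and the edgeR adjusted p 0.435. The shares of the libraries overlapped, at 5.37, 4.97 and 3.82% against 5.68, 5.25 and 6.25%. The circRNA with the most reads there came from SIPA1L1, a RAP GTPase-activating protein (hsa_circ_0001979), with 2, 1 and 0 against 19, 3 and 4 reads, most of them in resistant replicate 1. Sense overlapping circles had ratios of 0.803 to 1.09 across their length strata. Antisense and intergenic circles had 6 and 5 sensitive and 13 and 12 resistant reads in all, too few to test.

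**Figure D5:**
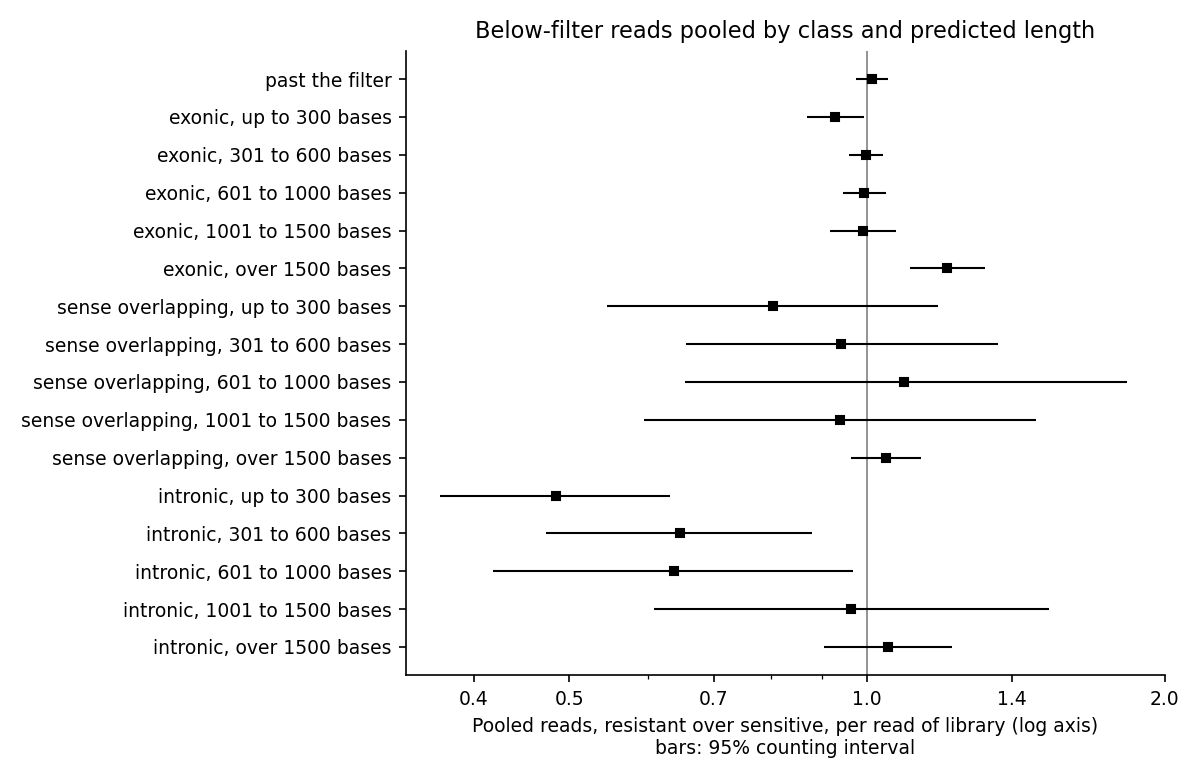
Ratio of resistant to sensitive reads per read of library (log horizontal axis) for below-filter circRNAs pooled by class and predicted length, and for all circRNAs past the filter, with bars for the 95% counting interval. Intronic circles of up to 300 bases stand lowest, at 0.485, and exonic circles over 1500 bases highest, at 1.20.

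Among the tested circRNAs, 149 of 274 exonic ones lay above 0 and 122 below (median log2 fold change 0.08), and 4 of 20 sense overlapping ones lay above and 14 below (median -0.21). Of 10 tested circRNAs with no circBase record, 1 lay above 0 and 6 below. By chromosome, 0 of 24 sums were called by edgeR (0%) and 1 had an unadjusted p under 0.05 (4.17%). Chromosome 1 took 7.29, 7.97 and 7.27% of the sensitive and 6.96, 6.59 and 6.88% of the resistant libraries, with no overlap. The resistant shares of 2 chromosomes lay all below (1 and 21, 8.33%) and of 2 all above (11 and 16, 8.33%). For chromosome 1 the log2 fold change was -0.14 ± 0.07, with an edgeR adjusted p of 0.684.

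At a common depth of 5654 reads, 2295, 2550 and 2532 circRNAs were expected in the sensitive and 2616, 2594 and 2615 in the resistant libraries. Sensitive replicate 1 stood apart, with fewer circRNAs and 2.11% of its reads in circRNAs seen once in Lovo, against 4.41 and 4.72% in the other sensitive libraries. Of 6 library measures, this number of circRNAs and the share of the 10 leading circRNAs lay all above in resistant cells (2, 33.3%), and none lay all below (0%). The 10 leading circRNAs were ranked by these same reads. The numbers of circRNAs were 2459 ± 142 against 2608 ± 12.7 (SD, n = 3 each; exact permutation p = 0.1, adjusted p = 0.3). The difference was 149 with all libraries and 67.3 without sensitive replicate 1. Counting circRNAs with at least 2 reads turned the difference to -69.1. The median predicted length, weighted by reads, was 653, 617 and 600 bases in the sensitive and 656, 634 and 666 in the resistant libraries, which overlapped.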

How the data were processed

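Per the file headers, the deposited values are raw counts of reads over each back-splice junction, with position, host gene, class, circBase record and predicted length, in bases, in another column. The submitters' processing notes name STAR 2.5.1b, cutadapt 1.9.3, edgeR 3.16.5 and the build hg19, without roles. No label names the circRNA caller, annotation or listing minimum (not given in the sources used here). Coordinates count from 1. No column of another series was present.

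From these counts, edgeR 4.0.16 (R 4.3.3; quasi-likelihood F-test, TMM, filterByExpr with a minimum count of 5 and total of 15) was fitted to all 12 libraries with 4 group means, with Benjamini-Hochberg adjustment over all features tested and a threshold of 0.05. The fit was repeated on host sums, on host sums of circRNAs below the filter and, scaled by library totals without TMM, on strata and chromosomes. Strata with a mean under 5 reads per library were left out. DESeq2 1.42.0 and limma 3.58.1 (voom) were alternatives, with RLE and total count scaling, a minimum count of 10, no filter, the 6 Lovo libraries alone, merged junctions, the replicate number as a block, and each Lovo library left out. The standard error is the log2 fold change over the square root of F. CPM are mean ± SD, and groups are said to overlap by their CPM or share of the library. Pooled ratios of single circRNAs and hosts are per TMM-scaled library size, and those of lists, strata, chromosomes, the 10 leading circRNAs together and members of strata per library total, with exact conditional binomial 95% intervals; a group at 0 was set to 3 reads. No molecular identifiers are named in the labels, so intervals and floors cover counting error only. A floor covers that of the group at 0, not that of the other group. Shares and library measures were compared by two-sided exact permutation tests (SciPy 1.17.1). Scripts were tested on simulated data.

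The text names the 10 circRNAs with the smallest p in each direction, the 10 with the most Lovo reads, the 5 host sums in each direction with the smallest p (3 for sums below the filter), the 5 circRNAs with the most reads seen in all libraries of a single state, and leading members of each list. FANCI, UCK2, WHSC1 and SIPA1L1 were chosen after their values were seen. The members and the 27 lists were chosen with earlier results of these data known. Lists have no test. One emptied line of the table was not analysed. Some results that the naming rule selects are not reported here. No genome was used, so no junction sequence is shown.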

Additional observations from a re-analysis of the deposited data

Results flagged for a closer look

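The circRNA of PRELID2 differed between the lines in its resistance effect, by a test of the difference itself. The effect in HCT116 minus that in Lovo was -4.75 ± 1.09 (SE) on the log2 scale, with an edgeR quasi-likelihood adjusted p of 0.0038, the sole call among 300 circRNAs (0.333%). HCT116 went from 25 reads in 3 sensitive to 7 in 3 resistant libraries, and Lovo from 5 to 42. In Lovo all 3 resistant libraries lay above all 3 sensitive ones. The cause was not tested.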

How the results depend on the processing

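The circRNA test called 0 under each alternative except the 6 Lovo libraries alone, which called 1 of 136 tested (PRELID2). With each library left out in turn, calls ranged from 0 to 0 for circRNAs, chromosomes and host sums below the filter, from 0 to 1 for host sums (WHSC1, without sensitive replicate 1), and from 0 to 1 for strata (intronic circles of over 600 and up to 1000 bases, without resistant replicate 3). Of 478 alternative values of the 38 features named for the smallest p, whose direction is least likely to turn, 477 kept direction and side of the threshold, 1 passed it (PRELID2) and 0 reversed. Over all named features with a fit, direction turned under at least 1 alternative in 32 of 85 circRNAs and 11 of 37 hosts, RBM33, FAT1, MET, NEIL3 and DCTD among them. Without the 4 hosts known earlier, an alternative chosen after seeing the data, the mitochondrial ratio was 0.975. The cause of these changes was not tested. No pairing by replicate number was detected: deviations of same-numbered libraries correlated at -0.0448, -0.00182 and 0.0160. At these low counts a pairing could be missed. With the replicate block edgeR called 0 circRNAs, 0 host sums, 0 host sums below the filter, 0 strata and 0 chromosomes, with 16, 26, 17, 2 and 1 at an unadjusted p under 0.05. At 2 or more reads in each library, one-state circRNAs numbered 5 and 4 and hosts 9 and 1, and the differences in circRNAs and hosts at the common depth turned to -69.1 and -22.9.

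Leaving out single libraries reversed differences (resistant minus sensitive) that lay within the spread. They ranged from -0.531 to 0.0313 percentage points for sense overlapping circles, -0.0338 to 0.596 for lengths of over 600 and up to 1000 bases, -1.84 to 0.0754 for no circBase record and -0.184 to 1.07 for circRNAs past the filter. The range was -0.742 to 0.566 points for circRNAs with 1 Lovo read, and -93.9 to 92.2 bases for mean length. Depth limits single circRNAs: 1 read is worth 127 to 159 CPM, and 19 of the 300 tested had under 10 Lovo reads.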
